A study of Mus musculus with 9 samples.

Results

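The genes described here encode the enzymes that lead from acetoacetate to isoprenoids. They were taken from a list of 9 by gene name: Aacs, Acat2, Hmgcs1, Mvk, Pmvk, Mvd, Idi1, Fdps and Ggps1. The platform annotation names a probe set for 8 of the 9, with 9 probe sets in all because Idi1 has a pair of them, against 19938 genes named on the array. Acat2, a thiolase that forms acetoacetyl-CoA, has no expression value analysed here. All 8 measured enzymes lay above the level filter and were tested among 11963 genes.

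The mevalonate pathway builds isoprenoid units from acetyl-CoA. HMG-CoA is made, mevalonate derived from it is phosphorylated and decarboxylated, and the resulting units are joined to farnesyl and geranylgeranyl diphosphate. These feed sterols, ubiquinone, dolichol and the lipid anchors of small GTPases, and the SREBP transcription factors raise the mRNAs of most of these enzymes when membranes lack sterol. Aacs encodes acetoacetyl-CoA synthetase, which activates acetoacetate in the cytosol and so offers the pathway a second source of substrate.

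The cells were NIH-3T3, an established line of mouse fibroblasts, transfected by a lipid reagent (DharmaFECT 1) with RNA at 25 nM and collected after 48 hours. The mimic group received a synthetic RNA acting as mmu-miR-378-3p, the inhibitor group an RNA that blocks it, and the control group an siRNA that the maker alters so that RISC does not take it up (RISC-free). There were 3 arrays in every group, and all groups had the same reagent, dose and time. No mimic or inhibitor of an unrelated sequence was among the groups, so effects of miR-378-3p and of any active small RNA cannot be told apart. The labels do not say whether replicates were separate cultures, so p-values cover only how these samples varied, and that variation may be technical.

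Levels are log2 RMA values, in which a difference of 1 is a 2-fold change in probe signal. All 10 fibroblast markers listed were well above the filter, between 6.66 and 11.37 on every array. The 10 measured markers of other cell types lay between 3.44 and 4.37, and 3 of them (Cd68, Krt8 and Pecam1) passed the filter. Array medians over all probe sets ran from 3.94 to 4.03. Mimic 3 and inhibitor 1 lay at opposite ends of the first principal component of the tested genes (scores of -20.5 and 20.88, 60.51% of the variance). Results for the enzymes are therefore also given without these arrays.

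With the mimic, 5 of the 8 enzyme genes fell, namely Aacs, Hmgcs1, Mvk, Idi1 and Fdps, and none rose (limma, adjusted p of at most 0.0238). Among all genes tested, 2.45% were called lower and 1.10% higher in this comparison. Aacs fell most, to 0.63 of the control level, followed by Idi1 at 0.703, and the other 3 stood between 0.762 and 0.773. The median over the 8 enzymes was -0.38 on the log2 scale, beside -0.01 over all genes tested. The mimic arrays lay wholly below the controls for 7 of the 8 genes, as they did for 12.7% of all genes. Because RNA came from whole cultures, less mRNA in every cell and fewer cells with much of it cannot be told apart.

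**Figure D1:**
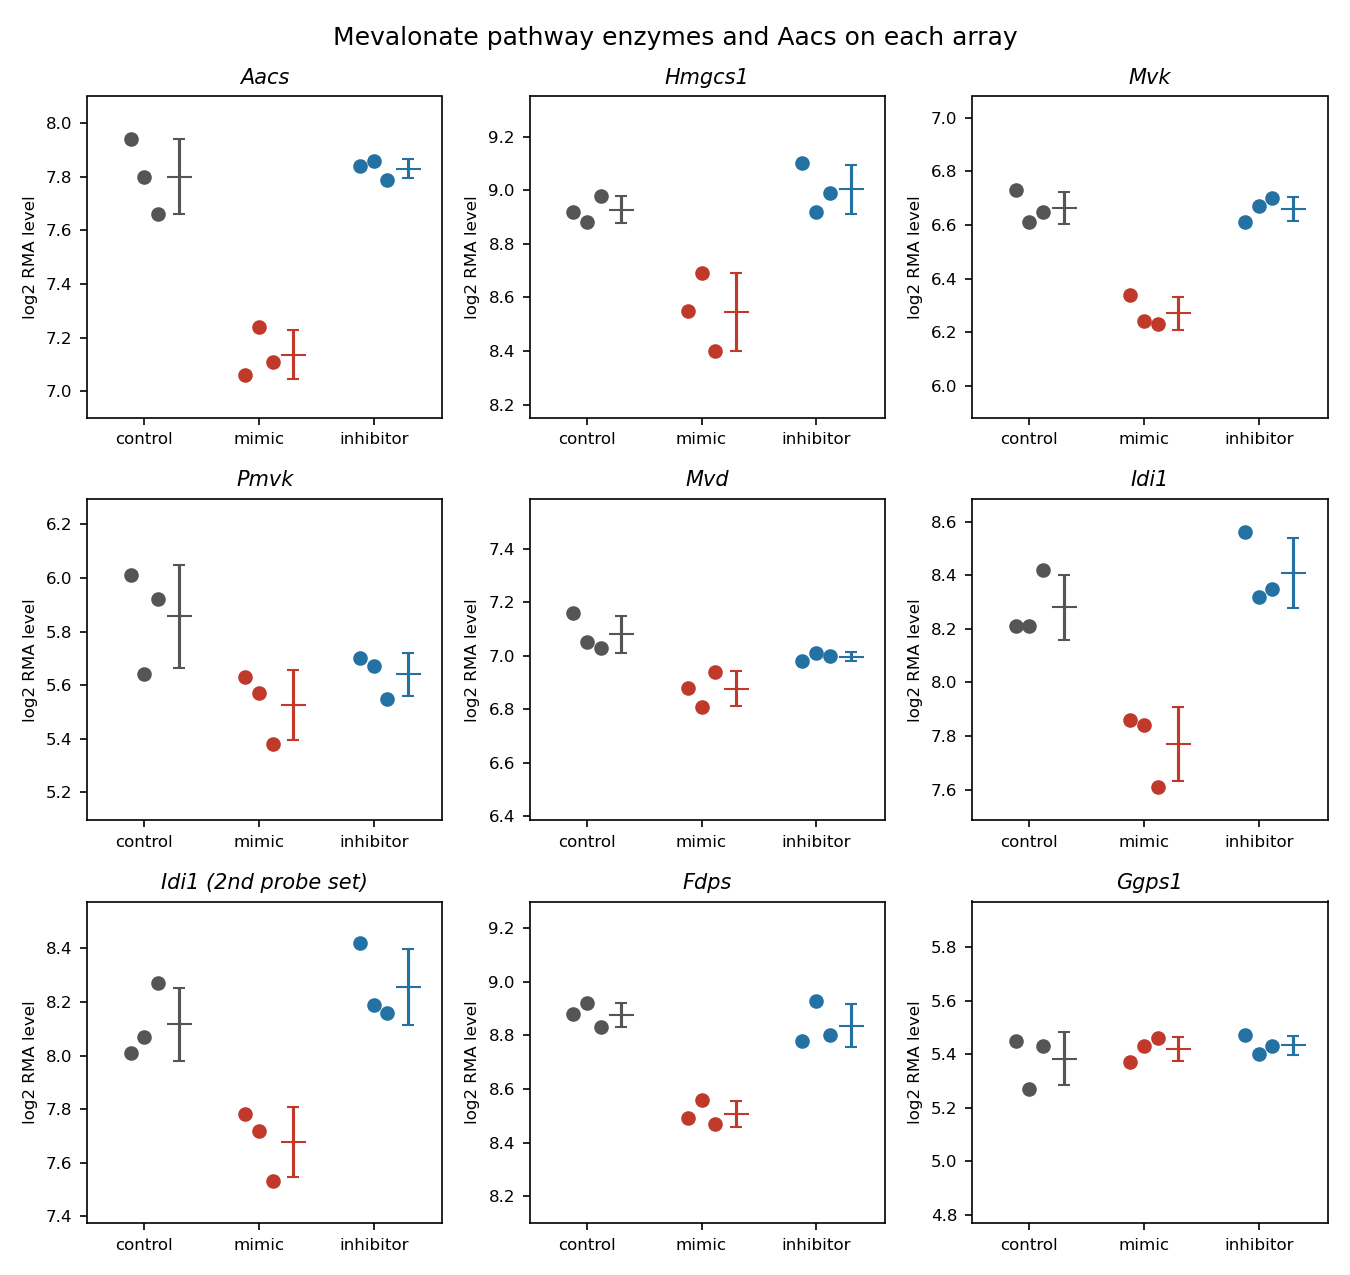
Log2 RMA level of each enzyme's probe set on the 9 arrays, by group, with each point an array and the bar beside it the group mean ± SD (n = 3). Every panel spans the same range of log2 units. The mimic points lie below all control points in each panel except that of Ggps1.

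The letters before the start sites are shown for 4 of the genes that fell and for Ggps1, which was not called, to set genes that moved together beside one that did not pass. The RefSeq promoter table (GRCm38.p6) holds windows for 8 of the 9 listed genes, all but Fdps. Each line gives the 250 bases before the annotated start, 5′ to 3′ in the direction of the gene. Capitals mark TCACNCCAC or CACCCCAC, letters found in sterol response elements where SREBP binds, and CCAAT, the letters read by the factor NF-Y, on either strand, so that a reverse match reads ATTGG. A CACCCCAC that follows T also completes TCACNCCAC and was counted once.

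Hmgcs1, chr13:119690101-119690350, plus strand: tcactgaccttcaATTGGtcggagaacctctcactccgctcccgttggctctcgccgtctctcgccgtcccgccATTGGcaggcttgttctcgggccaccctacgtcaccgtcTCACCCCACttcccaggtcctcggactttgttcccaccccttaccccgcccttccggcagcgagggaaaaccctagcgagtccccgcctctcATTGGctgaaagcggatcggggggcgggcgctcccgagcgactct

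Mvk, chr5:114444019-114444268, plus strand: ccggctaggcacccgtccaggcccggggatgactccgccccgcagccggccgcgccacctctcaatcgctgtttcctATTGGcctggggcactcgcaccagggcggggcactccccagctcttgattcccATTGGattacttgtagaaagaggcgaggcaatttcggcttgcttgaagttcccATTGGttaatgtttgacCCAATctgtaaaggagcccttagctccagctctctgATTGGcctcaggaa

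Idi1, chr13:8885356-8885605, plus strand: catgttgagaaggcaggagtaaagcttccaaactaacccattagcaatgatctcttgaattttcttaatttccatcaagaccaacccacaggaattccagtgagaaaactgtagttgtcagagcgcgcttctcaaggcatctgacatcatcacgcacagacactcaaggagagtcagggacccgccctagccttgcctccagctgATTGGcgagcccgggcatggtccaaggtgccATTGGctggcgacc

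Aacs, chr5:125475623-125475872, plus strand: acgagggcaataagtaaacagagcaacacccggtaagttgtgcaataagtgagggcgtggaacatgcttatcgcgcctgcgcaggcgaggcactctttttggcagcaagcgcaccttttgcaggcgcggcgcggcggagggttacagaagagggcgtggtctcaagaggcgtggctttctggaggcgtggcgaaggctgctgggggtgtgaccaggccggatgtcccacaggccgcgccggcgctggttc

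Ggps1, chr13:14063489-14063738, minus strand: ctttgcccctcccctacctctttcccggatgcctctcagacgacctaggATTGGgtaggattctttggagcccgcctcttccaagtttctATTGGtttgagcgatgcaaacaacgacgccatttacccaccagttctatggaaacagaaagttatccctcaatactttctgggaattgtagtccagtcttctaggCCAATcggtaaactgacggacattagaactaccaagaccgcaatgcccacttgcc

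Hmgcs1 holds TCACCCCAC, which begins 137 bases before the start, and 3 copies of CCAAT. One of the sterol motifs is in 3.12% of all 32851 windows, and 3 or more copies of CCAAT in 2.79%. Mvk holds 5 copies of CCAAT, between 14 and 173 bases before the start, and 4 or more are in 0.84% of windows. Idi1 holds 2 copies, and 2 or more are in 10.09%. Aacs, whose mRNA fell most, has none of these letters in its window, and Ggps1 has 3 copies of CCAAT and neither sterol motif. Altogether, 6 of the 8 listed genes with a window hold CCAAT in at least 1 window, and 33.85% of all windows hold it. Pmvk, counted among the 6, has 2 windows, of which only 1 holds CCAAT. A sterol motif is in 2 of the 8 (Hmgcs1 and Acat2). CCAAT was present both in genes that fell and in Ggps1, and a link of these letters to the differences was not tested. A match is a run of letters and not a shown binding site.

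At the entry to the pathway, Aacs read 7.94, 7.80 and 7.66 on the control arrays, 7.06, 7.24 and 7.11 with the mimic, and 7.84, 7.86 and 7.79 with the inhibitor (log2 level). The mimic arrays were all lower than every other array, and the inhibitor arrays lay inside the range of the controls. The fall with the mimic was -0.67 (log2 difference, 95% confidence interval -0.83 to -0.50; limma, adjusted p = 0.0017). Ranked by this difference, Aacs was number 13 from the lowest of 11963 genes. Its call held under each of 18 alternative settings, with differences from -0.74 to -0.60.

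Hmgcs1 encodes the cytosolic HMG-CoA synthase, the first committed step. It stood at 8.92, 8.88 and 8.98 in the controls, 8.55, 8.69 and 8.40 with the mimic and 9.10, 8.92 and 8.99 with the inhibitor. Mimic and control arrays did not overlap, and mimic 3 was the lowest of all. Hmgcs1 fell by 0.38 (interval -0.55 to -0.21; limma, adjusted p = 0.0238). This call was the least stable of the 5. Among other settings, it ended without control 1 (adjusted p = 0.0978), control 2 (0.0744), control 3 (0.112) or mimic 1 (0.0846), after median centring (0.0619) and in a fit of the 6 mimic and control arrays alone (0.0526).

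The next steps are kinases and a decarboxylase. Mvk, mevalonate kinase, read 6.73, 6.61 and 6.65 in the controls, 6.34, 6.24 and 6.23 with the mimic and 6.61, 6.67 and 6.70 with the inhibitor. The mimic values kept within 0.1 of each other and stayed below the rest. The fall was -0.39 (interval -0.51 to -0.27; limma, adjusted p = 0.00447), and it was called under each of the 18 settings.

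Pmvk, phosphomevalonate kinase, was spread more widely in the controls, at 6.01, 5.64 and 5.92. It read 5.63, 5.57 and 5.38 with the mimic and 5.70, 5.67 and 5.55 with the inhibitor. Control 2 stood close to the treated arrays, while the other controls stood above all of them. The differences were -0.33 with the mimic (interval -0.54 to -0.12; limma, adjusted p = 0.1) and -0.22 with the inhibitor (-0.43 to -0.01; adjusted p = 0.159). Neither passed the threshold. Without control 2 both did, at -0.44 (adjusted p = 0.0416) and -0.33 (adjusted p = 0.0428), and after quantile normalization the inhibitor difference passed as well (-0.28, adjusted p = 0.0422).

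Mvd, the diphosphomevalonate decarboxylase, stood at 7.16, 7.05 and 7.03 in the controls, 6.88, 6.81 and 6.94 with the mimic and between 6.98 and 7.01 with the inhibitor. The mimic arrays were again below the controls. The difference of -0.21 (interval -0.33 to -0.09) missed the threshold (limma, adjusted p = 0.0707). Mvd passed without mimic 3 (-0.24, adjusted p = 0.0348) and without mimic 3 and inhibitor 1 together (adjusted p = 0.0234).

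Idi1, the isomerase that supplies the reactive isoprenoid unit, was measured by a pair of probe sets annotated to the same transcripts. The brighter one read 8.21, 8.21 and 8.42 in the controls, 7.86, 7.84 and 7.61 with the mimic and 8.56, 8.32 and 8.35 with the inhibitor. Mimic 3 was lowest and inhibitor 1 highest of the 9 arrays. Idi1 fell by 0.51 under the mimic (interval -0.71 to -0.30; limma, adjusted p = 0.0161), at rank 53 from the lowest. The call ended without control 1 (adjusted p = 0.0524) or control 3 (0.0789). The other probe set gave -0.44 (interval -0.66 to -0.23; adjusted p = 0.0445 in a limma fit over probe sets) and the same order of groups. Whether one of them also reads a near-identical copy of the gene was not tested.

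Fdps, farnesyl diphosphate synthase, makes the last intermediate shared by the sterol and the other branches. Its levels were 8.88, 8.92 and 8.83 in the controls, 8.49, 8.56 and 8.47 with the mimic and 8.78, 8.93 and 8.80 with the inhibitor. Both the control and the mimic values spanned only 0.09, with a gap between them. The fall was -0.37 (interval -0.50 to -0.25; limma, adjusted p = 0.00596), called under each of the 18 settings.

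Ggps1, which extends farnesyl to geranylgeranyl diphosphate, was the exception. It read 5.45, 5.27 and 5.43 in the controls, 5.37, 5.43 and 5.46 with the mimic and 5.47, 5.40 and 5.43 with the inhibitor, so that all 3 groups overlapped. The difference with the mimic was 0.03 (interval -0.09 to 0.16; limma, adjusted p = 0.838), which leaves out a fall of the size seen for Fdps. Within an array, the log2 level of Fdps minus that of Ggps1 stood at -0.38, -0.36 and -0.48 from the control mean with the mimic, and at -0.06, 0.15 and -0.09 in the controls. This difference of -0.41 had an exact two-sided permutation p of 0.1, the smallest that 3 against 3 arrays can give, and the pair was chosen after its values were seen. The same comparison of Aacs with Hmgcs1 gave -0.28 (exact two-sided permutation p = 0.2).

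**Figure D2:**
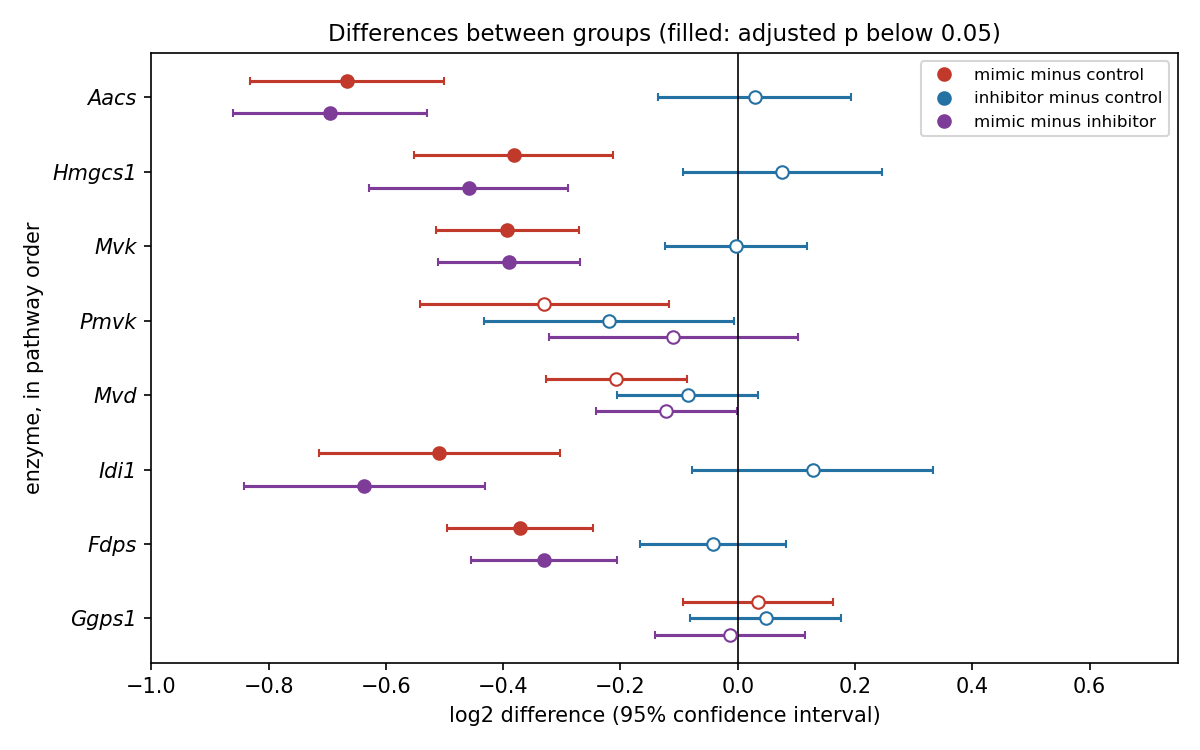
Log2 difference between groups for each enzyme in pathway order, with 95% confidence intervals from limma, filled where the adjusted p is below 0.05. Mimic differences from control run from -0.67 for Aacs to 0.03 for Ggps1, and no inhibitor difference from control is filled.

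The 3 mimic arrays agreed on which genes were low. Mimic 1, mimic 2 and mimic 3 each had 7 of the 8 enzymes below every control array, with medians of -0.35, -0.30 and -0.45 against the control mean. The median over all tested genes on these arrays was 0.00, 0.02 and -0.05. Mimic 2 had a principal component score of -3.95, inside the control range of -4.38 to -2.78, and still had its enzymes low. Mimic 3 was the lowest mimic array for 5 of the 8 genes, while Aacs was lowest on mimic 1 and Mvd on mimic 2. Without mimic 3, and also without mimic 3 and inhibitor 1 together, 6 of 8 genes were called lower. Without control 1 or without control 3 the count was 3, made up of Aacs, Mvk and Fdps.

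**Figure D3:**
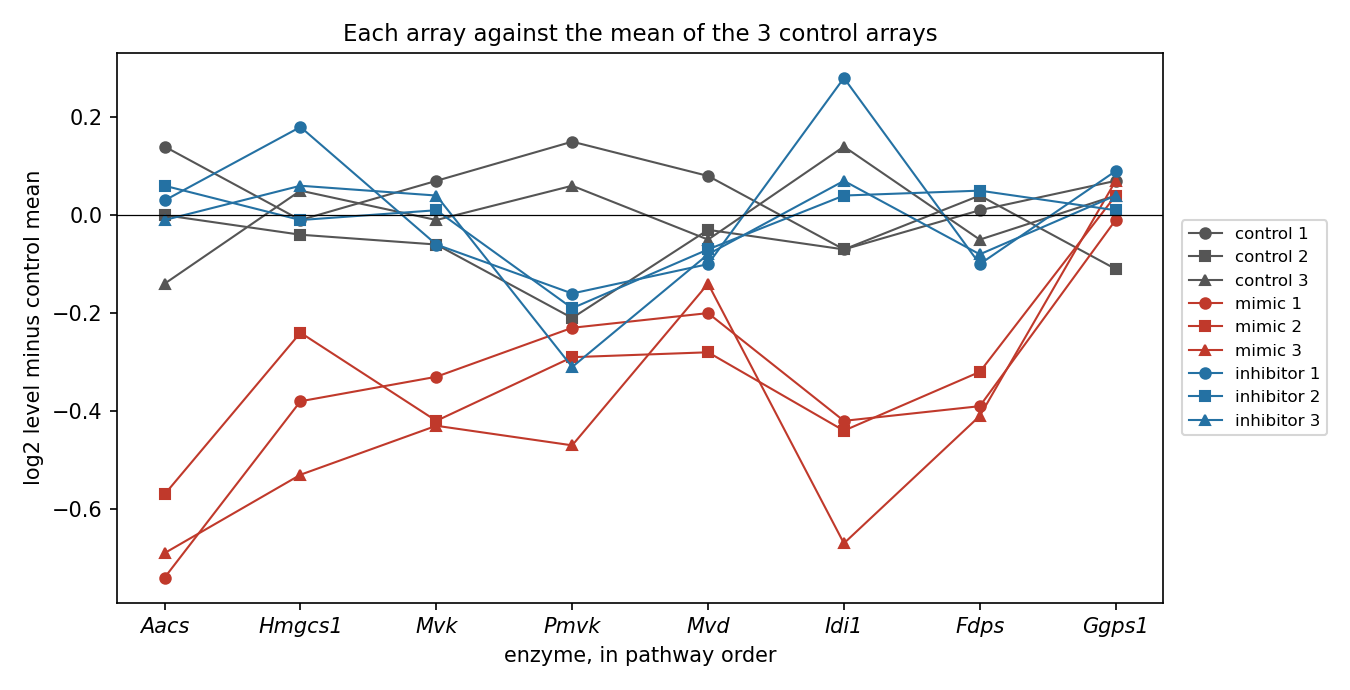
Log2 level of each enzyme on each array minus the mean of the 3 control arrays, with one line per array and enzymes in pathway order. The 3 mimic lines run together below 0 from Aacs to Fdps and meet the others at Ggps1, and inhibitor 1 stands above the rest at Idi1 (0.28).

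With the inhibitor, none of the 8 enzyme genes was called in either direction (limma, adjusted p of at least 0.159), and only Pmvk had an unadjusted p under the threshold of 0.05. Among all genes 11.1% were called higher and 3.76% lower in this comparison, which shares its control arrays with the mimic comparison. The median over the enzymes was 0.01, as over all genes tested. Idi1 (0.13, interval -0.08 to 0.33) and Hmgcs1 (0.08, -0.09 to 0.25) had the highest differences, and inhibitor 1 was the highest array for both. Aacs (0.03, -0.14 to 0.19), Mvk (-0.00, -0.12 to 0.12), Fdps (-0.04, -0.17 to 0.08) and Ggps1 (0.05, -0.08 to 0.18) had intervals on both sides of 0. For these 4 the intervals leave out a rise as large as the fall of Aacs with the mimic and allow smaller ones. For Mvd the inhibitor arrays lay just below the controls (-0.09, -0.21 to 0.04), a separation seen in 12.8% of all genes.

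**Figure D4:**
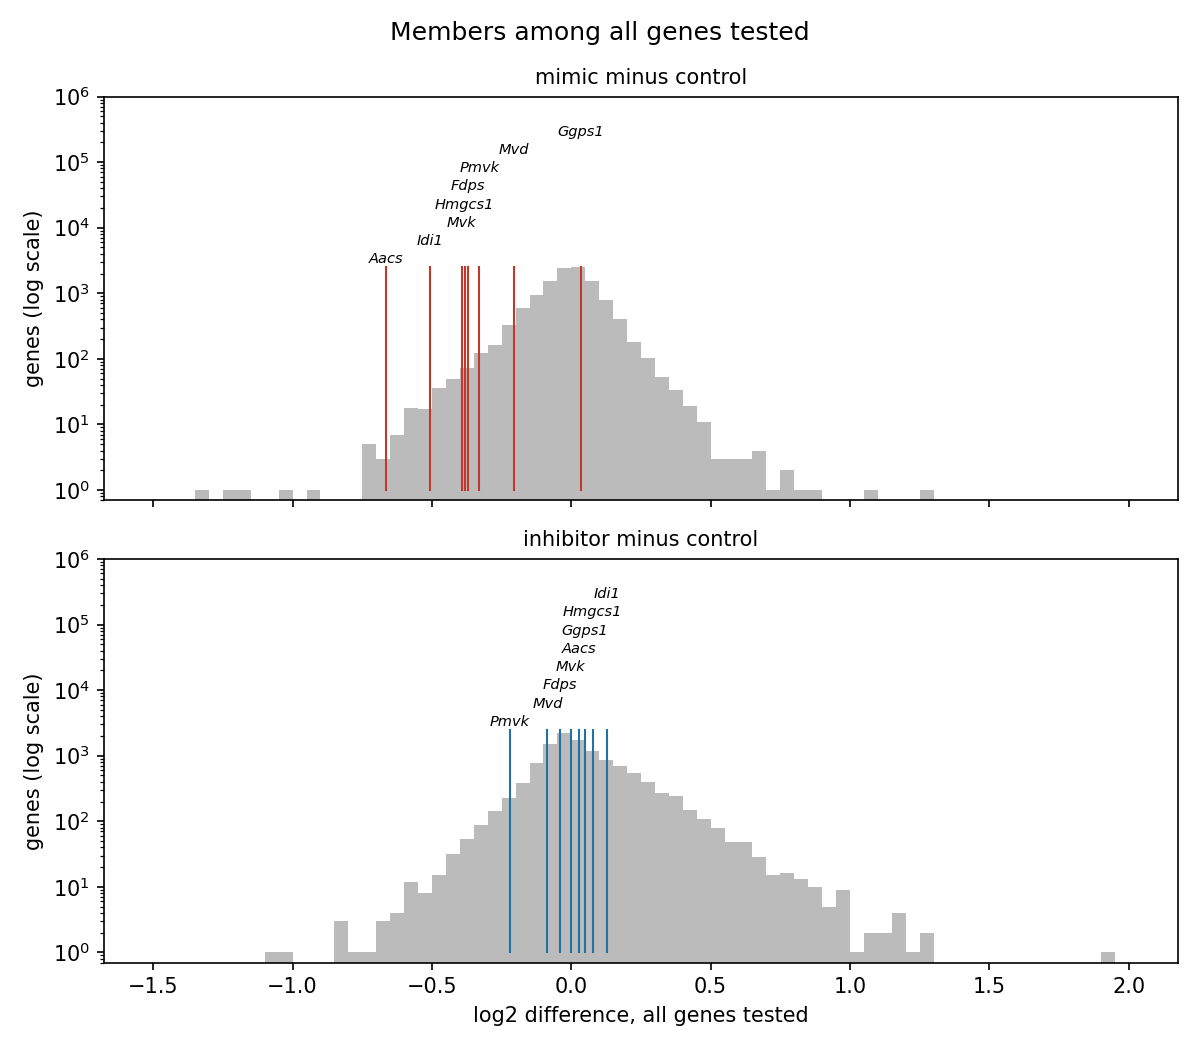
Number of tested genes (log scale) by log2 difference in bins of 0.05, for mimic and inhibitor against control, with a vertical line at each enzyme. With the mimic, Aacs and Idi1 stand in the thin lower tail, and with the inhibitor all 8 lie between -0.22 and 0.13.

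The direct comparison sets the mimic means against the inhibitor means, with the control arrays entering only the estimate of the spread. The same 5 genes were lower with the mimic (limma, adjusted p of at most 0.00201), against 19.9% of all genes called lower and 6.91% called higher. Aacs differed by -0.70 (interval -0.86 to -0.53), Idi1 by -0.64 (-0.84 to -0.43), Hmgcs1 by -0.46 (-0.63 to -0.29), Mvk by -0.39 (-0.51 to -0.27) and Fdps by -0.33 (-0.45 to -0.21). These calls held under each of the 18 settings. Mvd (-0.12, adjusted p = 0.127), Pmvk (-0.11, 0.432) and Ggps1 (-0.01, 0.887) did not pass. The mimic arrays lay wholly below the inhibitor arrays for 6 of the 8 enzymes, Mvd being the sixth, and for 25.7% of all genes.

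Other genes of the pathway were read from lists that were fixed with earlier results of these data known. Along the sterol branch, from squalene to cholesterol, 4 of 12 genes tested fell with the mimic and none rose, beside 2.45% and 1.10% of all genes, with a median of -0.28. Sqle, squalene epoxidase, fell by 0.41 (limma, adjusted p = 0.00556), Fdft1, squalene synthase, by 0.34 (0.0137), Sc5d by 0.30 (0.0295) and Dhcr7 by 0.23 (0.0337). The differences of all 12 were below 0. Among the alternative settings, the count was 8 after quantile normalization or without mimic 3 and inhibitor 1 together, 7 without mimic 2, 2 after median centring or without inhibitor 3, and 1 without control 1, control 2, control 3 or mimic 1. Sqle alone kept its call in all of these. With the inhibitor, Sc5d rose by 0.27 (adjusted p = 0.016) and no other gene of this list was called. Among all genes, 11.1% were called higher with the inhibitor and 3.76% lower. The inhibitor call of Sc5d ended without control 2, control 3, inhibitor 1 or inhibitor 3 (adjusted p of up to 0.0623). Mimic against inhibitor, 8 of the 12 were lower, beside 19.9% of all genes, and the smallest adjusted p-values were those of Sc5d (-0.57), Sqle (-0.48), Lbr (-0.55) and Msmo1 (-0.42).

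Regulators of the pathway formed another list. Of 9 genes for SREBP control and sterol uptake, only Stard4, a sterol carrier and SREBP target, fell with the mimic (-0.39, limma, adjusted p = 0.00509). That is 11.1% of the list, beside 2.45% of all genes, and the list median was -0.03. Srebf2, which encodes the main SREBP of sterol synthesis, differed by -0.18 (adjusted p = 0.182), and Insig1, an SREBP target that retains SREBP in the endoplasmic reticulum, by -0.16 (0.29). With the inhibitor, Scap, the SREBP escort protein, rose by 0.28 (adjusted p = 0.0163), and Npc2, which moves cholesterol out of lysosomes, fell by 0.20 (0.0177). Each is 1 of 9, beside 11.1% of all genes called higher and 3.76% called lower. Scap lost its call without control 1, control 3 or inhibitor 1, and Npc2 without control 1, control 2 or inhibitor 3 (adjusted p of up to 0.0732 and 0.0739). Mimic against inhibitor, Stard4 (-0.55), Scap (-0.34) and Srebf2 (-0.21) were lower and Npc2 was higher (0.38). The lower genes are 33.3% of the list, and among all genes 19.9% were called lower and 6.91% higher. The call of Srebf2 ended after quantile normalization, in a fit of the 6 arrays, and without mimic 3 and inhibitor 1 together. It also ended without control 1, mimic 1, mimic 3, inhibitor 1 or inhibitor 3 (adjusted p of up to 0.173).

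Genes that use isoprenoids, such as prenyltransferases and the enzymes of dolichol and ubiquinone synthesis, made up a list of their own. Of 16 tested with the mimic, 1 fell, the prelamin A protease Zmpste24 (-1.21, limma, adjusted p = 0.00283). That is 6.2% of the list, beside 2.45% of all genes, and the list median was -0.03. With the inhibitor Nus1, a subunit of the dolichol-forming prenyltransferase, rose by 0.37 (adjusted p = 0.0111), and Cox10, which farnesylates haem, by 0.21 (0.0288). These are 2 of the 16, beside 11.1% of all genes called higher. No gene of the list was called lower, beside 3.76% of all genes. Nus1 lost its call without control 2 (adjusted p = 0.0515), and Cox10 did so, among other settings, without any 1 of the controls, without inhibitor 2 or 3 and after quantile normalization (up to 0.13). Mimic against inhibitor, 4 of the 16 were lower, which is 25.0% beside 19.9% of all genes. They were Zmpste24 (-1.58), Nus1 (-0.37), Cox10 (-0.20) and Rabggtb (-0.26), the last called in 6 of 18 alternative settings. Srd5a3 was higher (0.19), as were 6.91% of all genes. Cox10 (adjusted p of up to 0.182) lost this call without inhibitor 2 or inhibitor 3, after quantile normalization and in the 6-array fit. Srd5a3 (up to 0.128) kept it in 8 of 18 settings. It lost the call after median centring, in the 6-array fit and in moderation with trend. The same held without any 1 control, mimic 1, mimic 2, inhibitor 2 or inhibitor 3.

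Of 8 genes for acetoacetate and acetyl-CoA supply, 1 fell under the mimic, beside 2.45% of all genes, and none rose, beside 1.10%. It was Acly, which makes cytosolic acetyl-CoA from citrate and fell by 0.32 (limma, adjusted p = 0.0115). All 8 differences were below 0, with a median of -0.18, beside a median of -0.01 over all genes tested. Without control 1, control 2, control 3 or mimic 1, Acly was no longer called (adjusted p of up to 0.0601). Oxct1, which activates acetoacetate in mitochondria and is thus a counterpart of Aacs, differed by -0.10 (adjusted p = 0.547), and Acat1, the mitochondrial thiolase, by -0.21 (0.154). With the inhibitor, Slc16a1, a carrier of lactate and ketone bodies, rose by 0.66 (adjusted p = 8.91e-05), and Bdh2 fell by 0.42 (0.00709). Each is 1 of 8, beside 11.1% of all genes called higher and 3.76% called lower. Mimic against inhibitor, Slc16a1 (-0.78), Acly (-0.46), and Acaca (-0.49) and Fasn (-0.44), which make fatty acids from acetyl-CoA, were lower, and Bdh2 was higher (0.35). The lower genes are 4 of 8, beside 19.9% of all genes, and the higher gene is 1 of 8, beside 6.91%. The 3 genes tested for cholesterol efflux had adjusted p of at least 0.349 in every comparison (limma), with medians of 0.00, 0.01 and -0.04. Of these, Abca1 and Abcg1 had control means of 4.08 and 4.39, close to the level filter of 3.86, so a fall in them could hardly be seen. Nr1h3 of the same list lay below the filter, and Nr1h2 had no probe set named for it alone.

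**Figure D5:**
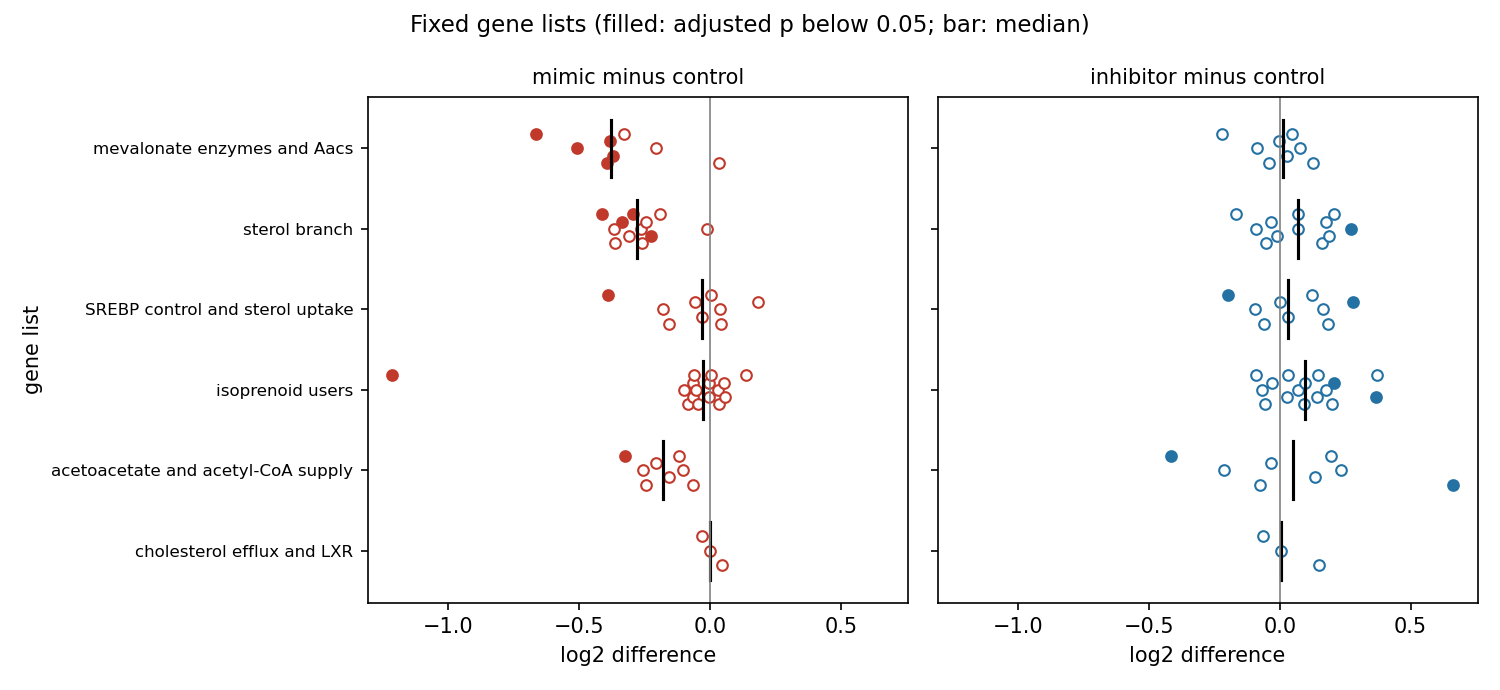
Log2 difference of every tested gene in the enzyme set and in 5 fixed lists, for mimic and inhibitor against control, filled where limma's adjusted p is below 0.05, with a bar at the median. With the mimic the medians are -0.38 for the enzymes and -0.28 for the sterol branch, and with the inhibitor each list holds few filled points.

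Some genes outside the pathway had profiles close to those of the enzymes over the 9 arrays. Likeness was the root mean square difference between profiles centred on the control mean, as a description with no test. Nearest to Aacs were Lrig3 (0.10 on the log2 scale), Gas2l3 (0.114) and Mki67 (0.115), and the nearest other enzyme was Mvk, at rank 59. For Idi1 they were Anln (0.072), Kif15 (0.081) and Me1 (0.081), and for Hmgcs1 they were Plekhb2 (0.032), Dsn1 (0.039) and Kpna2 (0.043). Idi1 and Hmgcs1 were each other's nearest enzyme, at ranks 126 and 16 of each other's lists. Mvk was closest to H1f5 (0.062), Dusp10 (0.063) and Zdhhc7 (0.067), and Fdps to Eef2k (0.047), Fam83d (0.059) and H2aw (0.065). Mvk and Fdps lay at ranks 11 and 9 of each other's lists. For each of these 5 enzymes some genes outside the pathway stood closer than any other enzyme did. With 11963 genes tested and only 8 enzymes among them, that was likely in advance. These ranks therefore do not show that the enzymes were unlike each other. Mki67, a marker of dividing cells, was lower with the mimic (-0.63; limma, adjusted p = 0.00309) and differed by 0.03 with the inhibitor, and its part in the enzyme differences was not tested.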

How the data were processed

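RNA of 9 NIH-3T3 samples, 3 per group, was measured on Affymetrix whole-transcript arrays. For each array the authors deposited log2 levels of 28853 probe sets, and the submitters' processing notes name Partek 6.5 and RMA, which corrects background, normalizes quantiles and summarizes probes. The annotation's genome build was not given in the sources used here. Of the probe sets, 21789 were annotated to 1 gene and used for naming, 1621 to several and 5443 to none. The probe set with the highest mean stood for a gene (999 of 19938 genes had several). Gene IDs of 19856 genes matched RefSeq (GRCm38.p6), which was used for names and promoter letters only.

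Genes with a mean level below the 40th percentile (3.86) were left out. A single linear model of 3 group means was fitted for 11963 genes over 9 arrays with limma 3.58.1 in R 4.3.3 (6 residual and 4.38 prior degrees of freedom). P-values were adjusted over all these genes by Benjamini-Hochberg, with a threshold of 0.05, and the script was tested on simulated data. The number of arrays limits the precision. All 9 listed enzymes are named, with Mmab and named paralogs where measured, up to 4 called genes per list and comparison with the smallest adjusted p, and the 3 nearest profiles of each enzyme called with the mimic. Srebf2, Insig1, Oxct1 and Acat1 in the mimic comparison, and Bdh2 and Rabggtb in mimic against inhibitor, were named after their values were seen. The enzymes and lists were chosen with earlier results of these data known. Alternatives were other level filters, quantile normalization, median centring, fits of 6 arrays, a replicate block, moderation with trend, the mean of probe sets and leaving out arrays. The list counts under these settings were added after seeing the data. Plots used matplotlib 3.10.9 under Python 3.11.15.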

Additional observations from a re-analysis of the deposited data

How the results depend on the processing

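The direction of each enzyme difference that was called held under all 18 alternatives. With 1 array left out, 3 to 6 of the 8 enzymes were called with the mimic, 0 to 1 with the inhibitor and 5 each time for mimic against inhibitor. After quantile normalization 1 enzyme, Pmvk, was called with the inhibitor. The replicate block left 4 mimic calls, the fall of Hmgcs1 being lost (limma, adjusted p = 0.0523), with 0 for the inhibitor and 5 for mimic against inhibitor. Replicate numbers gave no sign of pairing: deviations of same-numbered arrays correlated between -0.589 and 0.224, and an array matched its own number best in 6 of 18 cases. The labels state no pairing, and with 3 arrays a group these correlations cannot exclude it. No other enzyme lost its call under the block, but the sterol branch went from 4 to 2 mimic calls, losing Sc5d and Dhcr7, Cox10 lost its inhibitor call, and Rabggtb its call in mimic against inhibitor. Over all genes, 293 were lower and 132 higher with the mimic, against 439 and 335 after quantile normalization, 159 and 72 after median centring, 166 and 82 in the 6-array fit, and 427 and 484 without mimic 3 and inhibitor 1. With single arrays left out, 88 to 395 were lower and 45 to 300 higher. With the inhibitor, 450 were lower and 1330 higher, against 1022 and 1269 after quantile normalization, 270 and 1101 after median centring, 831 and 1665 without mimic 3 and inhibitor 1, and 232 to 723 and 742 to 2067 with single arrays left out. Mimic against inhibitor, 2377 were lower and 827 higher, against 2029 and 1670 after quantile normalization, 2322 and 545 after median centring, and 1637 to 2874 and 543 to 1005 with single arrays left out. The causes were not tested. With 3 arrays a group, precision is limited by that number.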

Other observations

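Mvk has a close neighbour on the other strand. Mmab, which encodes an enzyme of vitamin B12 metabolism, starts 242 bases away in the RefSeq promoter table (GRCm38.p6), and the windows of both genes share the 5 copies of CCAAT. Mmab read 6.03, 5.99 and 5.98 in the controls, 5.87, 5.86 and 5.81 with the mimic and 5.71, 5.66 and 5.80 with the inhibitor (log2 level). All treated arrays lay below the controls, and the inhibitor arrays lowest. Mmab fell by 0.28 with the inhibitor (interval -0.39 to -0.16; limma, adjusted p = 0.00564), where Mvk differed by -0.00, and the call held under all 18 alternatives. With the mimic it differed by -0.15 (adjusted p = 0.15), where Mvk fell by 0.39.

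The paralogs Acat3 and Idi2 gave no usable reading, with group means between 3.25 and 3.65, below the level filter of 3.86.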
